A study of Mus musculus with 24 samples.

Results

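The genes described here were the chaperones, folding enzymes, stress sensors and degradation factors of the endoplasmic reticulum (ER), chosen by gene symbol as a module for the ER folding machinery and the unfolded protein response. The module held 37 of the 55414 genes in the count table. By role these were 10 luminal Hsp70 and Hsp90 chaperones and their partners, 10 lectin chaperones, disulfide isomerases, oxidases and prolyl isomerases, 7 stress sensors and transcription factors, 7 factors of ER-associated degradation, and 3 genes of the translocon, the oligosaccharyltransferase and the wolframin channel. A gene was tested when its highest count in any library was at least 30, which 36 members and 14464 genes in all passed. The member that did not pass was Trib3, a pseudokinase gene downstream of ATF4 and CHOP, with at most 15.5 normalized counts in any mouse.

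Proteins that are secreted or sit in membranes are threaded into the ER through the Sec61 channel, folded there by chaperones and disulfide isomerases, and sent back to the cytosol for destruction when folding fails. The unfolded protein response adjusts this machinery to its load through the sensors IRE1 (Ern1), PERK (Eif2ak3) and ATF6, which act through the factors XBP1, ATF4 and cleaved ATF6 on the promoters of the chaperone genes. Neurons rely on the same machinery for receptors, channels and secreted peptides, and several of its genes also follow the ordinary load of protein synthesis.

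RNA was sequenced from the visual cortex (V1) of 24 male C57BL/6J mice aged 8 to 10 weeks (8 weeks at the experiment by the methods), each mouse giving 1 library, in 4 groups of 6 mice, and littermates were spread over the groups at random. Mice kept on a reversed light cycle received phosphate-buffered saline (PBS) or psilocybin, a psychedelic whose active product, psilocin, acts on serotonin receptors, at 5 mg/kg by intraperitoneal injection in their dark phase, then stayed in the dark or were placed in light for 2.5 h. The groups are called dark (PBS, libraries 1 to 6), psilocybin-dark (7 to 12), light (PBS, 13 to 18) and psilocybin-light (19 to 24), the names given by the headings of the study's supplementary count table. The sample labels give the same drug but the opposite light exposure for all 24 libraries, so the 4 sets of mice were the same either way, and every difference ascribed to light below has the opposite sign under the labels. Libraries 19 to 24 against 13 to 18 compared psilocybin with PBS at a single exposure by both sources, which the headings call light and the labels call dark. The early genes Npas4, Arc, Egr1 and Fosb, which neuronal activity induces, had their lowest means in the group called dark here (Arc, 1089 normalized counts in dark and 7729 in light).

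Library totals lay between 13552516 and 17906994 counts, and mitochondrial genes took 2.97% to 4.96% of them. The tissue was not uniform. Summed hippocampal markers reached 1068 to 5518 normalized counts in the dark mice and 399 to 756 in the other 18, so every comparison with the dark group also compared libraries with different hippocampal signal. Cerebellar markers summed to 17360 to 59600 in dark 1, dark 6, psilocybin-dark 12 and light 18 and to at most 2512 in the other 20 mice. Summed astrocyte markers were 37060 to 42130 in the psilocybin-light mice, 41260 to 56980 in light, 43340 to 61370 in psilocybin-dark and 38750 to 56850 in dark. The glutamatergic markers were present in every library, at 28460 to 93670, with the lowest sums in dark 1 and dark 6. In bulk tissue, fewer cells of a type and less RNA per cell cannot be told apart.

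**Figure D1:**
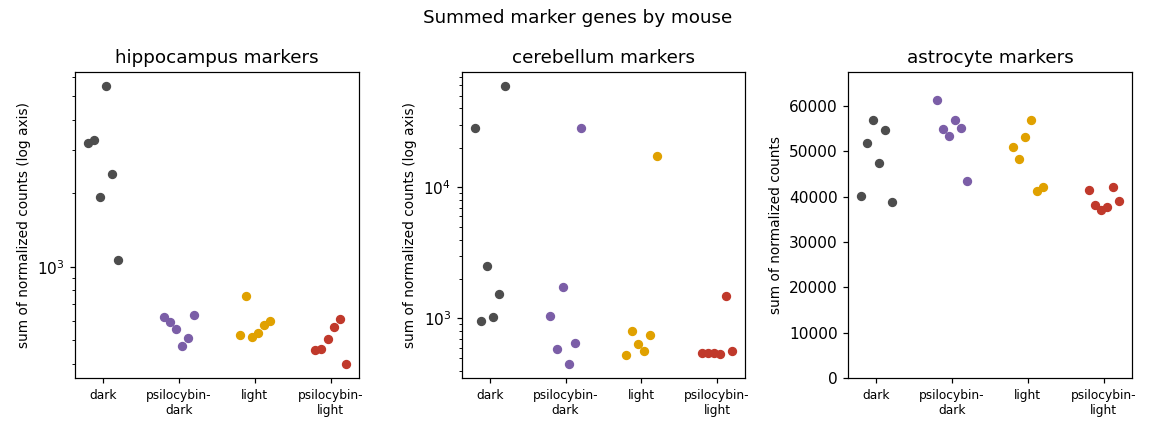
Summed normalized counts of hippocampal, cerebellar (both on a log axis) and astrocyte marker genes, 1 point per mouse, by group. The hippocampal sum was 1068 or more in all 6 dark mice and at most 755.5 in the others, 4 mice had a cerebellar sum above 10000, and the astrocyte sum stayed at or below 42130 in the psilocybin-light group.

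Promoters of this module carry the ER stress response element (ERSE), the letters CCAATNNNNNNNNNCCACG, which ATF6 binds together with the factor NF-Y. RefSeq promoter windows, 250 bases before to 50 bases after the start, were found for 32 of the 37 members, and both strands were searched. The ERSE occurred in 9 of the 32 (28.1%) and in 37 of 27025 genes with a window (0.137%). The related ERSE-II, ATTGGNCCACG, occurred in 2 members, Dnajb11 and Herpud1, and in 0.0444% of all genes. The shorter UPRE core TGACGTG was found in 1 member, Hspa5 (2.22% of all genes), the C/EBP-ATF element TGATGCAA in 1, Herpud1 (1.03%), and neither the CRE TGACGTCA (2.03% of all genes) nor the heat shock element GAANNTTCNNGAA (0.662%) in any. The 10 ERSE matches of the 9 members are shown because 8 of these 9 genes were called lower in psilocybin-light mice in at least 1 comparison below. Each is read from its CCAAT to its CCACG, both in capitals, with 12 bases on either side. RefSeq sequences were located in GRCm39 by an exact and unique match, and the strand is that of the letters shown.
Calr, chr8:85573692-85573734, + strand: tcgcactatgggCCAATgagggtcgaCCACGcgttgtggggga
Canx, chr11:50216615-50216657, - strand: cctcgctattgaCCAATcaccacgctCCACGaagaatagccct
Creld2, chr15:88703711-88703753, - strand: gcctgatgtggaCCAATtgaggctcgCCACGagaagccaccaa
Dnajc3, chr14:119175227-119175269, + strand: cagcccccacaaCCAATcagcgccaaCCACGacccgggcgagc
Ero1b, chr13:12580551-12580593, - strand: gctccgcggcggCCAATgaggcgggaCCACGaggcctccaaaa
Hsp90b1, chr10:86541490-86541532, - strand: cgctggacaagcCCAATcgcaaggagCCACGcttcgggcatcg
Hsp90b1, chr10:86541385-86541427, + strand: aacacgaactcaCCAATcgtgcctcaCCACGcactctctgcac
Hspa5, chr2:34662025-34662067, + strand: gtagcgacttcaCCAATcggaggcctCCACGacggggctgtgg
Pdia6, chr12:17316480-17316522, + strand: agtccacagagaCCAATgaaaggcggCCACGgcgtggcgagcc
Syvn1, chr19:6096550-6096592, + strand: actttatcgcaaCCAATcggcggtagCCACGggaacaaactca
Measured from the CCAAT or CCACG end nearest to the start, the matches lay 26 (Syvn1) to 194 (Hsp90b1) bases before it. Hsp90b1 was the member with more than 1 match. The element read in the direction of the gene in 6 of the 10 matches and against it in 4.

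The 250 bases before the start are given for 3 members that the results turn on, with the letters of any ERSE and UPRE core in capitals. Hspa5 encodes BiP, the Hsp70 of the ER, Dnajc3 its co-chaperone P58IPK, and Pdia4 the disulfide isomerase ERp72, whose window held none of the 6 motifs as spelled here.
Hspa5, chr2:34661852-34662101, + strand: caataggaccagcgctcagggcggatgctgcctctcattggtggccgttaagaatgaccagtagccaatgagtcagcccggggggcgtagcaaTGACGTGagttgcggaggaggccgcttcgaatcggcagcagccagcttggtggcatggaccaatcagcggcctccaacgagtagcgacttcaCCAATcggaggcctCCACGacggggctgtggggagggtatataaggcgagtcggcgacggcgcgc
Dnajc3, chr14:119175094-119175343, + strand: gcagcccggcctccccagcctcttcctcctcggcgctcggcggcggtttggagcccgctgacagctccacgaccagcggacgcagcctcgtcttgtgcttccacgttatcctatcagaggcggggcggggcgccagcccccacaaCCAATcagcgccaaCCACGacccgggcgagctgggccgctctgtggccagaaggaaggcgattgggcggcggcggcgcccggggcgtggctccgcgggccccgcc
Pdia4, chr6:47790447-47790696, - strand: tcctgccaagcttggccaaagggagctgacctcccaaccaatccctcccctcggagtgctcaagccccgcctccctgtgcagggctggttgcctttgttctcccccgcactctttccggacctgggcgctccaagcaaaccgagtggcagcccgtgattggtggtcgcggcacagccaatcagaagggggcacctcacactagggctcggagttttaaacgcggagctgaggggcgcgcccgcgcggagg

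Within a group, mice differed little in most members. The coefficient of variation, averaged over the 4 groups, had a median of 7.37% over the 36 members, from 3.05% for Dnajb9, an Hsp70 co-chaperone, to 42.0% for Wfs1, the wolframin channel of the ER membrane. Per length of exon in the dark mice, the level was highest for the lectin chaperone Calr (134 RPKM, reads scaled by exon length and library size), followed by Hspa5 (86.0 RPKM), the prolyl isomerase Fkbp2 (72.4 RPKM), the Hsp90 of the ER, Hsp90b1 (67.6 RPKM), and the membrane lectin Canx (66.0 RPKM). The low end held the kinase sensor Ern1 (1.08 RPKM) and the mannosidase-like Edem1 (1.86 RPKM). The factor Atf4 stood at 52.1 RPKM and the oxidase Ero1b at 2.72 RPKM, so the level per length differed widely within their 2 roles. The chaperone partner Manf had 4.26 RPKM. That value depends on its gene model, 12163 exon bases that overlap exons of Rbm15b and Dcaf1.

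The calls in psilocybin-light mice were mostly lower levels of chaperones and folding enzymes. Against light, which differed from it by the drug, 8 of the 36 members were called lower and 0 higher by edgeR's quasi-likelihood test at a Benjamini-Hochberg adjusted p under 0.05, while 0.553% of all genes were called lower and 0.0553% higher. These 8, 22.2% of the members, stood among 88 genes called in all. They were the chaperones and partners Dnajc3, Sdf2l1, Manf and Creld2, the lectins Calr and Canx, the disulfide isomerase Pdia4 and the ubiquitin ligase Syvn1. The 6 psilocybin-light values lay below all 6 light values in 9 members, against 0.933% of all genes. Over the 36 members the median log2 fold change was -0.14 and 30 were below 0. Over all 14464 genes tested the median was -0.01 and 7548 were below 0.

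Against psilocybin-dark, 6 members were called lower (16.7%) and 0 higher, where 3.78% of all genes were called lower and 2.6% higher. The 6 were Calr, Canx, Dnajc3, Pdia4, the oxidase Ero1b and Edem1, and 4 of the 36 did not overlap between these groups, with 3.8% of all genes. Against dark, 14 members were lower (38.9%) and 5 higher (13.9%), where 21.0% of all genes were called lower and 17.4% higher. No overlap with the dark mice was seen in 5 of the lower members, beside 7.56% of all genes. Calr, Canx, Dnajc3 and Pdia4 were called lower in psilocybin-light mice in each of the 3 comparisons, which share the psilocybin-light libraries.

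**Figure D2:**
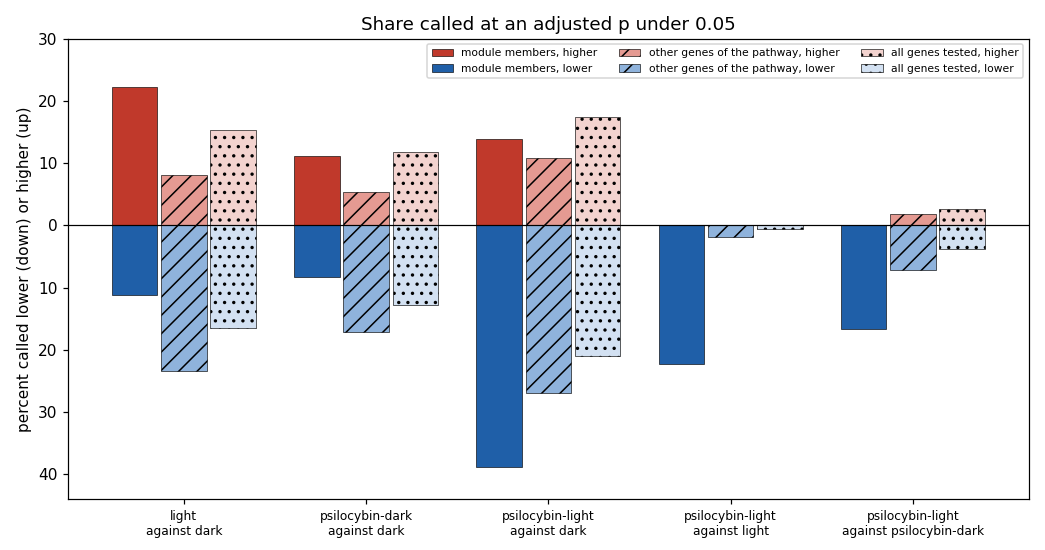
Percent of the 36 members tested, of 111 other genes of the pathway and of all 14464 genes tested that were called higher (bars up) or lower (bars down) in each of 5 comparisons. The members' share called lower was 22.2% in psilocybin-light against light, where 0.553% of all genes were, and 11.1% in light against dark, where 16.5% were.

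Light alone and psilocybin alone gave fewer calls of lower levels. In light against dark, 8 members were higher and 4 lower (22.2% and 11.1%), beside 15.4% and 16.5% of all genes. In psilocybin-dark against dark, 4 were higher and 3 lower (11.1% and 8.33%), beside 11.9% and 12.8% of all genes, so that the members were called about as often as genes in general. With the mean level of the hippocampal markers as a term in the fit, the called members fell to 1 in light against dark, 0 in psilocybin-dark against dark and 2 in psilocybin-light against dark (Canx and Dnajc3). The share of all genes called with that term was 5.11%, 0% and 6.63% in these comparisons, so the members fell with genes in general. Summed hippocampal markers were higher in every dark mouse than in every other mouse. In comparisons with dark, and in the interaction, the hippocampal term and the group therefore cannot be fully told apart. A call lost there, here or below, does not show which of them the change followed. With the same term 5 members were called in psilocybin-light against light and 6 against psilocybin-dark, beside 0.643% and 7.5% of all genes.

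The astrocyte marker sum moved with the psilocybin-light group. With the mean astrocyte marker level as a term, added after the data were seen, 0 members and 1 of 14464 genes were called in psilocybin-light against light, where 1070 genes had an unadjusted p under 0.05. The log2 fold changes in that fit were -0.62 for Pdia4 (adjusted p = 0.0825 by edgeR), -0.63 for Sdf2l1, -0.44 for Manf and -0.21 for Dnajc3, which had -0.66, -0.69, -0.47 and -0.32 without the term. Single mice also moved this count, from 2 members without psilocybin-light 19 or 24 to 11 without light 17, beside 0.0622%, 0.083% and 1.07% of all genes, and Pdia4 stayed called in all 24 fits that left out 1 mouse. DESeq2's Wald test called 12 members lower and 0 higher, beside 1.32% of all genes in either direction.

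Hspa5, the BiP gene and the usual gauge of ER load, had 6667 to 8364 normalized counts in dark (median 7808), 5475 to 7455 in psilocybin-dark (median 7329), 6702 to 8693 in light (median 7499) and 5330 to 6715 in psilocybin-light (median 6063). Only 1 psilocybin-light mouse, at 6715, exceeded the lowest PBS value, and the lowest psilocybin-dark mouse was number 12, which carried cerebellar signal. The log2 fold change in psilocybin-light was -0.34 ± 0.08 (SE, n = 6 against 6) against dark, adjusted p = 0.0021 by edgeR. Against light it was -0.32 ± 0.08 with an adjusted p of 0.0685 by edgeR, and an exact two-sided permutation test of the 6 against 6 mice gave p = 0.00433. Without the 4 mice rich in cerebellar markers, an exclusion chosen after the data were seen, this adjusted p by edgeR was 0.0177. That fit called 2.34% of all genes in psilocybin-light against light, beside 0.608% with all mice. With the astrocyte term Hspa5 was not called there.

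Sdf2l1, a small partner of the BiP system, ranged over 277 to 397 normalized counts in dark (median 310), 202 to 317 in psilocybin-dark (median 257), 262 to 439 in light (median 354) and 187 to 262 in psilocybin-light (median 223). All psilocybin-light mice were below all dark and all light mice, and they overlapped the psilocybin-dark mice. Its log2 fold change was -0.52 ± 0.12 against dark (adjusted p = 0.00183 by edgeR, n = 6 against 6) and -0.69 ± 0.12 against light (adjusted p = 0.0114), where it fell by 38.1%. Psilocybin-dark had a log2 fold change of -0.32 ± 0.12 against dark with an adjusted p of 0.0593 by edgeR, which did not pass.

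Manf, a secreted survival factor that stabilizes BiP with its clients, had 734 to 944 normalized counts in dark (median 831), 627 to 898 in psilocybin-dark (median 783), 808 to 1087 in light (median 893) and 609 to 724 in psilocybin-light (median 650). Here too the psilocybin-light mice lay wholly below the dark and the light mice. The log2 fold change was -0.34 ± 0.08 against dark (adjusted p = 0.00253 by edgeR) and -0.47 ± 0.08 against light (adjusted p = 0.0114). Manf overlaps Rbm15b on its own strand and Dcaf1 on the other in GENCODE vM39, and reads shared between them cannot be told apart.

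Dnajc3, a co-chaperone of BiP, had 1333 to 1656 normalized counts in dark (median 1407), 1265 to 1385 in psilocybin-dark (median 1360), 1245 to 1558 in light (median 1394) and 1003 to 1260 in psilocybin-light (median 1083). The psilocybin-light mice lay below all dark and all psilocybin-dark mice, and 1 light mouse, at 1245, reached into their range. Log2 fold changes in psilocybin-light were -0.38 ± 0.06 against dark (adjusted p = 5.18e-05 by edgeR), -0.32 ± 0.06 against light (0.0188) and -0.27 ± 0.06 against psilocybin-dark (0.00918).

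Creld2, a secreted partner of disulfide isomerases described by mouse after its values were seen, ran from 331 to 419 normalized counts in light (median 368) and from 239 to 303 in psilocybin-light (median 265), with 244 to 361 in dark and 245 to 354 in psilocybin-dark. It rose in light, by a log2 fold change of 0.30 ± 0.09 against dark (adjusted p = 0.0172 by edgeR), and it was lower by -0.48 ± 0.09 in psilocybin-light against light (0.0203). Against dark, psilocybin-light gave -0.18 ± 0.09 with an adjusted p of 0.134 by edgeR.

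Among the other members of this role, the Hsp110-like Hyou1 was lower in psilocybin-light than in dark (-0.27 ± 0.08 on the log2 scale, adjusted p = 0.00887 by edgeR) and Dnajc10, a reductase with a J domain, was lower in light than in dark (-0.15 ± 0.05, 0.0167). Hsp90b1, Dnajb11 and Dnajb9 passed in none of the comparisons. Hsp90b1, the member with 2 ERSE matches, had 5784 to 6423 normalized counts in psilocybin-light and 6368 to 6590 in light, a log2 fold change of -0.06 ± 0.05.

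**Figure D3:**
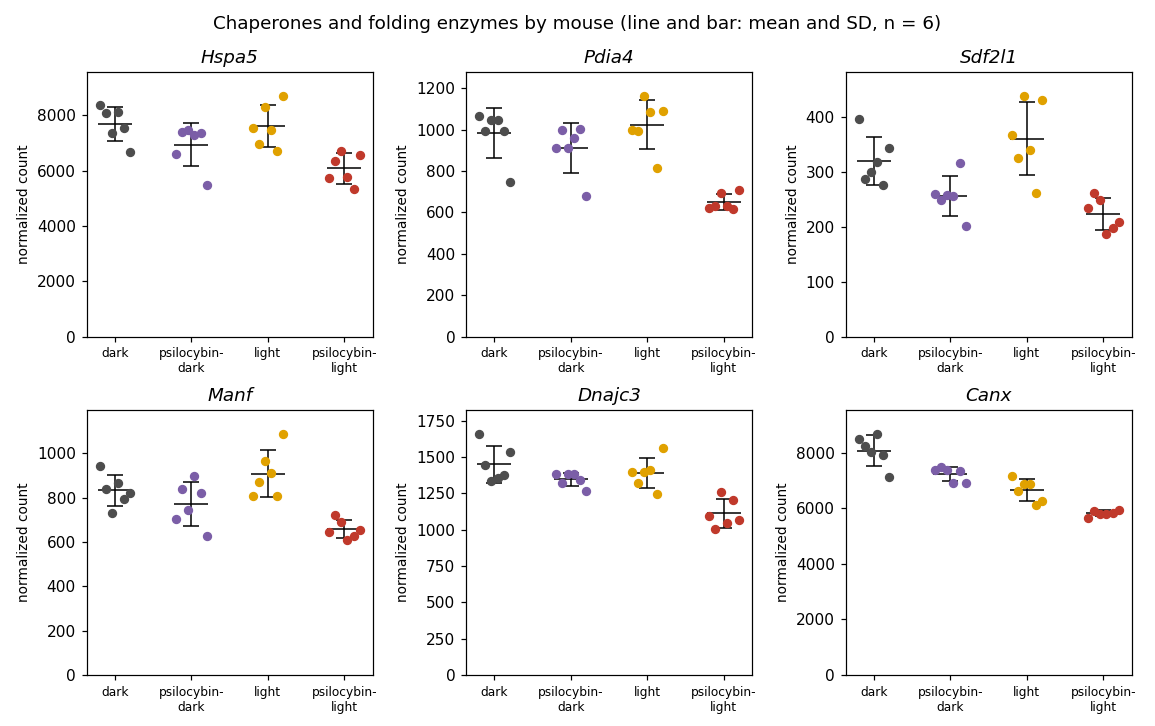
Normalized counts of Hspa5, Pdia4, Sdf2l1, Manf, Dnajc3 and Canx, 1 point per mouse in 4 groups of 6, with the group mean (line) and SD (bar), on axes from 0. The psilocybin-light mice have the lowest group mean in each panel, lying between 616 and 708 for Pdia4 and between 5655 and 5954 for Canx.

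Pdia4, a disulfide isomerase of the luminal chaperone complex, had 745 to 1066 normalized counts in dark (median 1020), 679 to 1003 in psilocybin-dark (median 937), 815 to 1162 in light (median 1042) and 616 to 708 in psilocybin-light (median 631). All 6 psilocybin-light mice lay below every PBS mouse, and the 1 psilocybin-dark mouse within their range was number 12, at 679. The log2 fold change was -0.59 ± 0.10 against dark (adjusted p = 4.64e-05 by edgeR), -0.66 ± 0.10 against light (0.00328, where it fell by 36.5%) and -0.49 ± 0.10 against psilocybin-dark (0.00343). Light against dark gave 0.06 ± 0.09 and psilocybin-dark against dark -0.11 ± 0.09, neither past the threshold.

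Canx, calnexin, the membrane lectin that holds new glycoproteins, had 7114 to 8670 normalized counts in dark (median 8145), 6919 to 7472 in psilocybin-dark (median 7367), 6128 to 7157 in light (median 6746) and 5655 to 5954 in psilocybin-light (median 5819). Its groups stepped down in that order of medians, and the psilocybin-light mice overlapped no other group. It was the chaperone lower than dark in all 3 other groups, by -0.16 ± 0.05 in psilocybin-dark (adjusted p = 0.0128 by edgeR), -0.28 ± 0.05 in light (7.45e-05) and -0.47 ± 0.05 in psilocybin-light (1.81e-07). Its difference from light was -0.19 ± 0.05 (0.0499), at the edge of the threshold, and 19 of the 24 fits without 1 mouse lost that call.

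Calr, calreticulin, the soluble lectin, described by mouse after its values were seen, had 6898 to 9002 normalized counts in dark, 6948 to 8157 in psilocybin-dark, 7475 to 8425 in light and 6259 to 7083 in psilocybin-light. Psilocybin-light did not overlap light. It was lower by -0.29 ± 0.06 than in dark (adjusted p = 0.000249 by edgeR), by -0.24 ± 0.06 than in light (0.046) and by -0.19 ± 0.06 than in psilocybin-dark (0.0425), and of the 24 fits without 1 mouse, 19 lost the call against light and 14 that against psilocybin-dark.

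The oxidases that recharge the isomerases were called lower in different comparisons, and a difference between them was not tested. Ero1b was lower in psilocybin-light than in dark (-0.22 ± 0.06 on the log2 scale, adjusted p = 0.00492 by edgeR) and than in psilocybin-dark (-0.24 ± 0.06, 0.0175), whereas Ero1a was lower in light than in dark (-0.26 ± 0.08, 0.0152). The isomerase Pdia6 was lower in psilocybin-light than in dark (-0.30 ± 0.09, 0.00818), and its sister enzymes Pdia3 and P4hb passed in no comparison. The prolyl isomerases were called higher in light. Ppib rose in light by 0.25 ± 0.07 (0.00996). Fkbp2 had 883 to 981 normalized counts in dark (median 934), 907 to 1053 in psilocybin-dark (median 942), 985 to 1145 in light (median 1076) and 927 to 1085 in psilocybin-light (median 997). Every light mouse was above every dark mouse, with a log2 fold change of 0.20 ± 0.04 (adjusted p = 0.0015 by edgeR), and psilocybin-light was 0.11 ± 0.04 above dark (0.0497), a call that 14 of 24 fits without 1 mouse lost. Fkbp2 overlaps Ppp1r14b on the other strand.

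The mean log2 level of the 20 chaperones and folding enzymes was taken as the difference from the dark mean. It averages both roles, including members called higher in light. It lay between -0.27 and -0.14 in psilocybin-light mice, between -0.08 and 0.10 in light, between -0.23 and -0.01 in psilocybin-dark and between -0.14 and 0.09 in dark. The psilocybin-light mice were below all light and all dark mice, and 1 psilocybin-dark mouse, number 12, lay within their range. The gap to the dark mice was narrow, with psilocybin-light 21 at -0.142 and dark 6 at -0.136.

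The sensors and factors were called in another direction. None of the 6 tested was called lower in any comparison between groups. In each of the 3 groups other than dark, 3 were called higher than dark, Atf6 and Atf4 every time. The third was Ddit3 in the light groups and Ern1 in psilocybin-dark. Of all genes, 15.4% were called higher in light, 11.9% in psilocybin-dark and 17.4% in psilocybin-light. With the hippocampal term, 1 member of the whole module was called higher than dark in light, 0 in psilocybin-dark and 0 in psilocybin-light. Atf6, the sensor that is cut to release a transcription factor for ERSE promoters, had 918 to 1372 normalized counts in dark (median 1072), 1371 to 2522 in psilocybin-dark (median 2205), 1371 to 2053 in light (median 1894) and 1685 to 2446 in psilocybin-light (median 2062). The other 3 groups, with means of 1828 to 2093 normalized counts against 1084 in dark, overlapped one another.

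Atf6 rose by a log2 fold change of 0.75 ± 0.13 in light (adjusted p = 0.000206 by edgeR), 0.95 ± 0.13 in psilocybin-dark (3.85e-05) and 0.93 ± 0.13 in psilocybin-light (1.59e-05), each the largest change of any member in its comparison. With the hippocampal term the psilocybin-light value was 0.45 with an adjusted p of 0.203 by edgeR, and without the 4 mice rich in cerebellar markers it was 0.93. Atf6 overlaps the long non-coding gene Gm9929 on the other strand, whose reads cannot be told apart without the strand setting of the counting.

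Atf4, the factor whose translation PERK raises, had 1712 to 2464 normalized counts in dark (median 1922), 2056 to 2584 in psilocybin-dark (median 2304), 2138 to 2458 in light (median 2253) and 2134 to 2380 in psilocybin-light (median 2344). Dark mouse 6, at 2464, 1 of the 4 rich in cerebellar markers, stood above all light and all psilocybin-light mice and within the psilocybin-dark range, and the 5 remaining dark mice had at most 2037. The log2 fold change was 0.20 ± 0.07 in light (adjusted p = 0.0273 by edgeR), 0.20 ± 0.07 in psilocybin-dark (0.0281) and 0.22 ± 0.07 in psilocybin-light (0.0117), and with the hippocampal term the last was 0.01.

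Ddit3 encodes CHOP, a factor downstream of ATF4. It had 292 to 325 normalized counts in dark (median 305), 306 to 336 in psilocybin-dark (median 311), 328 to 436 in light (median 395) and 323 to 436 in psilocybin-light (median 367). Light mice stood wholly above dark mice and psilocybin-light mice almost so, with 0.33 ± 0.07 in light (adjusted p = 0.00118 by edgeR) and 0.27 ± 0.07 in psilocybin-light (0.00489), and psilocybin-dark gave 0.05 ± 0.07. Ddit3 overlaps Mars1 and Mbd6 on the other strand.

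Xbp1, the factor whose mRNA IRE1 splices, had 1850 to 2157 normalized counts in dark (median 1945), 1683 to 2108 in psilocybin-dark (median 1905), 1884 to 2573 in light (median 2181) and 1733 to 1954 in psilocybin-light (median 1814). Gene counts do not separate its spliced form. Light gave 0.16 ± 0.06 against dark (adjusted p = 0.0623 by edgeR) and psilocybin-light -0.27 ± 0.06 against light (0.0524), so neither passed. Ern1 itself was higher in psilocybin-dark than in dark, by 0.31 ± 0.11 (0.0419), and Eif2ak3 passed in no comparison.

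**Figure D4:**
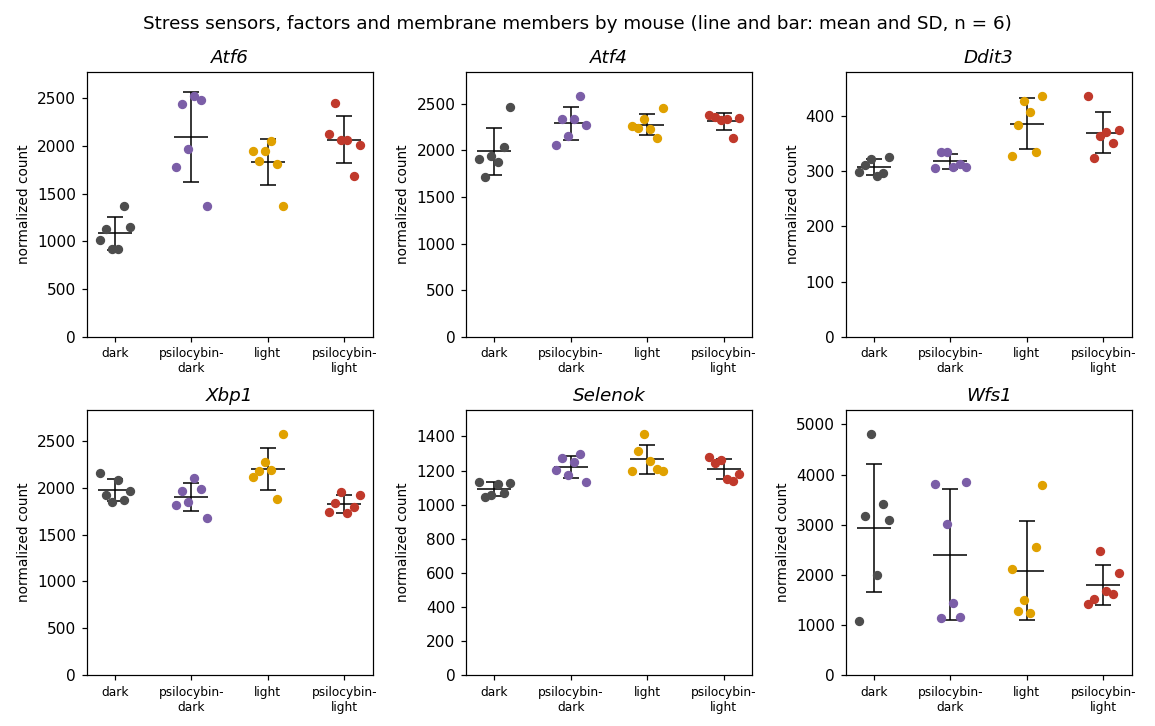
Normalized counts of Atf6, Atf4, Ddit3, Xbp1, Selenok and Wfs1, 1 point per mouse in 4 groups of 6, with mean (line) and SD (bar), on axes from 0. Atf6 lay between 918 and 1372 in dark mice and between 1371 and 2522 in the other 18, and Wfs1 spread from 1079 to 4805 among the dark mice.

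Of the 7 degradation genes, Derl1 and Derl2, which form the channel for misfolded proteins, were lower than dark. Derl1 fell by 0.25 in light, by 0.24 in psilocybin-dark and by 0.31 in psilocybin-light on the log2 scale (adjusted p = 0.00381, 0.00648 and 0.000462 by edgeR), with SE 0.06 in each. Derl2 fell by 0.18 in psilocybin-dark (0.0253) and by 0.33 in psilocybin-light (0.000134). Syvn1, the ligase HRD1, was lower in psilocybin-light than in dark (-0.14 ± 0.04, 0.0124) and than in light (-0.19 ± 0.04, 0.0499), and 21 of 24 fits without 1 mouse lost the second call. Edem1, which marks glycoproteins for disposal, was lower in psilocybin-light than in psilocybin-dark (-0.27 ± 0.08, 0.0359), and Herpud1, a scaffold of the ligase, was higher in light than in dark (0.20 ± 0.07, 0.0417). Sel1l, the partner of HRD1, passed in none.

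Selenok, a selenoprotein of the ER membrane, rose in all 3 groups. It had 1042 to 1131 normalized counts in dark (median 1094), 1132 to 1295 in psilocybin-dark (median 1227), 1197 to 1413 in light (median 1234) and 1139 to 1278 in psilocybin-light (median 1212). Each of the other 18 mice was above every dark mouse. Log2 fold changes were 0.21 ± 0.05 in light (adjusted p = 0.0011 by edgeR), 0.16 ± 0.05 in psilocybin-dark (0.0121) and 0.15 ± 0.05 in psilocybin-light (0.0137), and the last was 0.08 with an adjusted p of 0.572 with the hippocampal term.

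Of the other 3 members, Ostc, a subunit of the oligosaccharyltransferase, was lower in psilocybin-light than in dark (-0.18 ± 0.06, adjusted p = 0.021 by edgeR). Sec61b, a subunit of the translocon, had 118 to 145 normalized counts in psilocybin-dark and 149 to 164 in dark with no overlap, and its log2 fold change of -0.22 ± 0.08 had an adjusted p of 0.0544 by edgeR. Wfs1, which is also a marker of hippocampal CA1 neurons, had 1079 to 4805 normalized counts in dark (median 3137), 1131 to 3852 in psilocybin-dark (median 2223), 1235 to 3800 in light (median 1804) and 1415 to 2479 in psilocybin-light (median 1648). Its mice overlapped in all groups, and psilocybin-light against dark gave -0.71 ± 0.36 with an adjusted p of 0.12 by edgeR.

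Psilocybin was tested at each exposure in separate mice, 12 in light and 12 in the dark. Of the 36 members, 30 had a fold change below 0 with psilocybin in light and 25 in the dark. Of all 14464 genes, 7548 were below 0 in light and 7744 in the dark. The 22 members below 0 in both were further from 0 in light in 19 cases. The matching count over all genes was not made. Canx was the 1 member called lower at both exposures.

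**Figure D5:**
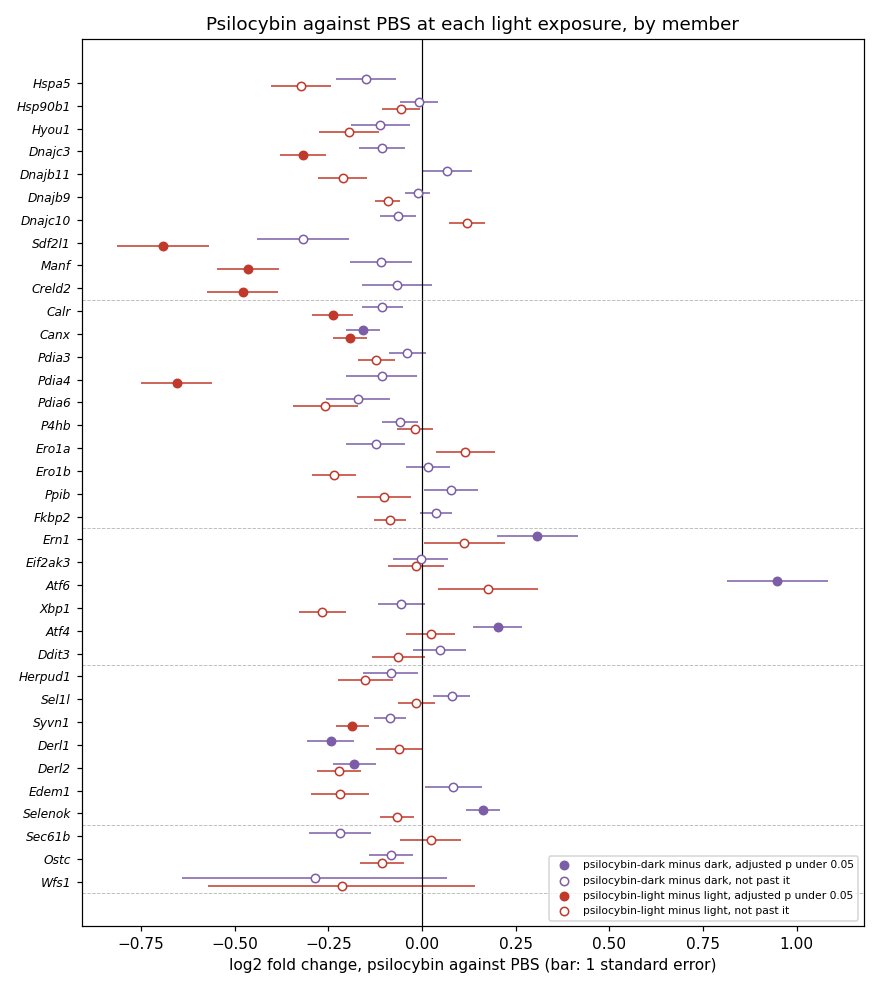
Log2 fold change of psilocybin against PBS for the 36 members tested, in the dark and in light, with bars of 1 standard error and filled points for an adjusted p under 0.05. Dashed lines separate the roles. Pdia4, Sdf2l1, Creld2 and Manf lie between -0.69 and -0.47 in light and between -0.32 and -0.07 in the dark, and Atf6 lies at 0.95 in the dark and 0.18 in light.

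The interaction, the psilocybin effect in light less that in the dark, was called below 0 in 3 members and above 0 in 0, beside 4.86% and 3.89% of all genes. Pdia4 had -0.55 ± 0.13 (adjusted p = 0.0145 by edgeR), from psilocybin effects of -0.66 in light and -0.11 in the dark. Atf6 had -0.77 ± 0.19 (0.0144), from 0.18 and 0.95, and Selenok -0.23 ± 0.07 (0.0306), from -0.07 and 0.16. The negative sign thus came with a larger fall in light for Pdia4 and with a rise in the dark alone for Atf6 and Selenok. Without dark mice 1 and 6 the count was 13 (11 below 0), where 21.6% of all genes were called (11.0% below 0) against 8.75% with all mice, and with the hippocampal term it was 0, as for all genes, of which 1480 had an unadjusted p under 0.05.

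Psilocybin-dark and light mice differed in both drug and exposure. No member was called between them by edgeR, beside 0.456% of all genes in either direction. An unadjusted p under 0.05 was found in 11 members, 9 of them lower in psilocybin-dark, and in 2076 of all 14464 genes. DESeq2 called 6 lower, beside 1.53% of all genes, and leaving out dark mice 1 and 6 also gave 6 lower, beside 2.52%. The largest difference was that of Sdf2l1, -0.49 ± 0.12 with an adjusted p of 0.0572 by edgeR.

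The ERSE promoters shown above can be set beside these values. Of the 9 members with a match, 8 were called lower in psilocybin-light in at least 1 of its 3 comparisons, and 4 of the 22 tested members whose window had none (Derl2, Edem1, Pdia4 and Sdf2l1). Of the 5 tested members with no window found, 4 were called lower as well (Derl1, Hyou1, Manf and Ostc), and of all genes 21.8%. In psilocybin-light against light the median log2 fold change was -0.24 for the 9 and -0.09 for the 22, and in light against dark it was -0.04 and 0.05. Pdia4 and Sdf2l1, with the largest falls, were without a match, and Hsp90b1, with 2 matches, was not called. These are descriptions of letters in a window, and no binding was measured.

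Of the wider pathway, 111 tested genes of 112 listed that are not members, 2 were called lower and 0 higher in psilocybin-light against light. That was 1.8% of the list, beside 0.553% of all genes called lower and 0.0553% higher. The 2 were the ER Hsp40 Dnajc1 (-0.32 ± 0.06, adjusted p = 0.0133 by edgeR) and Ubxn4, which tethers the p97 ATPase to the ER (-0.18 ± 0.03, 0.0133). Dnajc1 is named because it was 1 of these 2, after its values were seen. Against dark, more of the list were called lower than higher in each group, a wider imbalance than among all genes. In light 26 were lower and 9 higher, beside 2382 and 2229 of all genes (16.5% and 15.4%). In psilocybin-dark 19 were lower and 6 higher, beside 1856 and 1719 (12.8% and 11.9%). In psilocybin-light 30 were lower and 12 higher, beside 3038 and 2513 (21.0% and 17.4%). With both directions together, 31.5%, 22.5% and 37.8% of the list were called, near the 31.9%, 24.7% and 38.4% of all genes. The strongest of these were Ubxn4 (-0.35 ± 0.03, adjusted p = 1.81e-07 by edgeR) and the mannosidase Edem3 (-0.34 ± 0.03, 2.16e-07) for degradation, and Dnajb14 (-0.44 ± 0.05, 1.62e-06) and the thioredoxin-like Tmx4 (-0.47 ± 0.07, 1.83e-05) for folding, all in psilocybin-light.

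Of 23 genes of the PERK and ATF4 arm, 7 rose and 1 fell in psilocybin-light against dark, beside 17.4% and 21.0% of all genes, among them the factor Cebpb (0.66 ± 0.12, adjusted p = 0.000197 by edgeR) and the seryl-tRNA synthetase Sars1 (0.23 ± 0.04, 0.000127), and the 1 that fell was the lipoprotein receptor Vldlr (-0.49 ± 0.09, 0.000161). Of 26 genes for translocation and glycosylation, 2 rose and 7 fell in psilocybin-light, 34.6% in all where 38.4% of all genes were called, with the signal peptidase subunit Spcs3 at 0.34 ± 0.07 (0.000916) and the oligosaccharyltransferase Stt3a at -0.29 ± 0.05 (3.14e-05). Of the 12 further genes of the ATF6 and IRE1 arms, 1 fell and 0 rose. Median log2 fold changes of the whole list were -0.08 in psilocybin-light against dark and -0.01 against light, where the members had -0.13 and -0.14.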

How the data were processed

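RNA of 24 libraries, 1 per mouse, was enriched for poly-A tails. The authors trimmed reads with cutadapt, aligned them with STAR and used HTSeq to count by Ensembl identifier, and the deposited values are raw counts without normalization. The paper's methods name the build GRCm39 and the submitters' processing notes mm10. The annotation release and the strand setting were not given in the sources used here. Besides the overlaps named above, exons of Hspa5, Pdia3, Pdia6, Ppib, Xbp1, Syvn1, Derl2 and Wfs1 overlap protein-coding genes on the other strand. Whether reads there were shared cannot be told without the strand setting.

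The counts were fitted in edgeR 4.0.16 (R 4.3.3) with TMM scaling and the two-sided quasi-likelihood test on all 24 mice, after a filter of at least 30 counts in any library, with Benjamini-Hochberg adjustment over the 14464 genes that passed. Normalized counts are counts scaled by TMM to the mean library size. The common biological coefficient of variation was 0.182. Names and positions came from GENCODE vM39 and promoters from RefSeq (GRCm38.p6). Single values were also compared by exact permutation of 6 against 6 mice, where the smallest p is 0.00216. Scripts were tested on simulated data. Alternatives were DESeq2 1.42.0, its size factors in edgeR, filterByExpr, no filter, only the groups compared, mice left out, marker means as terms, an adjusted p under 0.01 and the exposures of the sample labels.

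The members and lists were chosen with earlier results of these data known. Values by mouse are given for Hspa5, Xbp1, Atf4, Ddit3, Wfs1 and members called against dark without overlap of the groups, and Creld2, Calr, Hsp90b1 and Sec61b were added after their values were seen. Of the other pathway lists, up to 2 called genes per direction with the smallest p are named. Protein sequences were not analysed here.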

Additional observations from a re-analysis of the deposited data

Results flagged for a closer look

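In 7 of the 144 sets of 6 mice screened (36 members in 4 groups), the highest or lowest mouse stood apart from the other 5 by Dixon's ratio at its 95% critical value. Chance flags about 1 in 20 sets, which is the number seen here. Mouse psilocybin-dark 12 had 5703 normalized counts of Hsp90b1, with the next mouse at 6557, and 678.7 of Pdia4, with the next at 911.3. Mouse dark 6 had 2080 of Hyou1, with the next at 2747, and 744.8 of Pdia4, with the next at 993.5. Light 18 had 1371 of Atf6, with the next at 1807. These 3 mice were among the 4 with the highest cerebellar marker sums, 28200, 59600 and 17360 normalized counts. Psilocybin-light 24 had 421.5 of Eif2ak3, with the next at 471.4, and psilocybin-light 23 had 2134 of Atf4, with the next at 2323.

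The psilocybin effect differed between the exposures in 3 of the 36 members (8.33%) by the interaction term of the edgeR fit, near the 8.75% of all genes. With the hippocampal term, or at an adjusted p under 0.01, the members called were 0. The difference, light less dark on the log2 scale, was -0.55 for Pdia4 (adjusted p = 0.0145), -0.77 for Atf6 (adjusted p = 0.0144) and -0.23 for Selenok (adjusted p = 0.0306). Under the sample labels each has the opposite sign.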

How the results depend on the processing

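Each count of members called is given under every alternative that moved it by over 1.5 times. In light against dark, 12 members were called, with 7 at an adjusted p under 0.01 and 1 with the hippocampal marker mean as a term. In psilocybin-dark against dark the 7 members became 2 at an adjusted p under 0.01, 4 with no filter on low counts, 4 in a fit of only the groups compared and 0 with the hippocampal term. In psilocybin-light against dark the 19 members became 2 with the hippocampal term. In psilocybin-light against light the 8 members became 5 with DESeq2 size factors, 5 with filterByExpr, 5 with the hippocampal term, 4 with no filter and 1 at an adjusted p under 0.01. In psilocybin-light against psilocybin-dark the 6 members became 3 with no filter and 3 at an adjusted p under 0.01. In psilocybin-dark against light the 0 members became 6 with DESeq2, 6 without dark mice 1 and 6, and 1 in a fit of only the groups compared. The 3 members of the interaction became 6 with DESeq2, 13 without dark mice 1 and 6, 0 with the hippocampal term and 0 at an adjusted p under 0.01. The share of all genes called moved in these fits as well. In psilocybin-dark against dark it went from 24.7% to 13.8% with only the groups compared. With no filter, of 31758 genes tested, 9.36% were called there, 0.0693% in psilocybin-light against light and 1.46% against psilocybin-dark. The cause was not tested.

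3 alternatives were chosen after seeing the data. Without the 4 mice rich in cerebellar markers the counts were 11 in psilocybin-dark against dark, 13 in psilocybin-light against psilocybin-dark, 2 in psilocybin-dark against light and 15 in the interaction. Of all genes, 38.3%, 17.2%, 6.03% and 27.0% were called in these fits. A cerebellar term gave 5 in psilocybin-dark against light and 6 in the interaction, beside 4.65% and 13.7% of all genes. An astrocyte term gave 9 in psilocybin-light against dark, 0 against light, 2 against psilocybin-dark and 5 in psilocybin-dark against light. The shares of all genes with that term were 15.9%, 0.00691%, 4.44% and 2.11%. The share of all genes called moved too, as in the interaction, from 8.75% to 21.6% without dark mice 1 and 6 and 27.0% without the 4 mice.

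Leaving out 1 mouse at a time gave 10 to 13 members in light against dark, 17 to 21 in psilocybin-light against dark and 4 to 11 in psilocybin-dark against dark, with 4 without dark 2 or psilocybin-dark 8 and 11 without dark 6. Psilocybin-light against light ranged from 2 to 11, with 2 without psilocybin-light 19 or 24, 3 without light 16 or psilocybin-light 20, 4 without light 15, and 5 without dark 1, 3 or 5, psilocybin-dark 7, 8, 9, 10 or 11, light 13 or 14, or psilocybin-light 21 or 23. Psilocybin-light against psilocybin-dark ranged from 3 (without psilocybin-dark 10 or psilocybin-light 19) to 9, psilocybin-dark against light from 0 to 4 (2 without light 13, 3 without dark 1 and 4 without dark 6) and the interaction from 2 to 8 (5 without dark 1, 6 without psilocybin-dark 12, 7 without light 17 and 8 without dark 6). The share of all genes called moved over the same fits. Against dark it ran from 27.2% to 34.8% in light, 33.9% to 40.1% in psilocybin-light and 19.0% to 29.2% in psilocybin-dark. In psilocybin-light it was 0.0622% to 1.07% against light and 4.05% to 8.67% against psilocybin-dark. Psilocybin-dark against light had 0.0208% to 2.4%, and the interaction 5.77% to 14.5%. Besides the calls given above for Canx, Calr, Syvn1 and Fkbp2, fits without 1 mouse lost other calls. Lost 9 times each of 24 were Ern1 in psilocybin-dark against dark, Herpud1 in light against dark and Selenok in the interaction. Edem1 against psilocybin-dark was lost 8 times, and Atf4 6 times in psilocybin-dark and 4 times in light. In psilocybin-light against light, Creld2 was lost 5 times (adjusted p up to 0.0707 by edgeR) and Dnajc3 4 times (up to 0.069). Sdf2l1 and Manf were lost there 1 time each. Against dark, psilocybin-light lost Ostc 4 times and Syvn1 1 time. Derl2 was lost 3 times in psilocybin-dark against dark, and Ero1b 2 times in psilocybin-light against psilocybin-dark.

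Under the exposures of the sample labels, dark and light trade places in each drug group. Light against dark then had 12 members, 4 higher and 8 lower, psilocybin-light against psilocybin-dark 6, all higher, and the interaction 3, all higher, while psilocybin-light against dark had 0 and psilocybin-dark against light 19. The log2 fold changes that changed sign were, in light against dark, 0.15 for Dnajc10, -0.30 for Creld2, 0.28 for Canx, 0.26 for Ero1a, -0.25 for Ppib, -0.20 for Fkbp2, -0.75 for Atf6, -0.20 for Atf4, -0.33 for Ddit3, -0.20 for Herpud1, 0.25 for Derl1 and -0.22 for Selenok. In psilocybin-light against psilocybin-dark they were 0.27 for Dnajc3, 0.19 for Calr, 0.31 for Canx, 0.49 for Pdia4, 0.24 for Ero1b and 0.27 for Edem1. In psilocybin-light against dark they were 0.12 for Canx, 0.00256 for Ero1b, -0.16 for Fkbp2, -0.28 for Ddit3, 0.00745 for Derl1 and -0.0521 for Selenok. Selenok had -0.067 in psilocybin-dark against dark, and the interaction was 0.55 for Pdia4, 0.77 for Atf6 and 0.23 for Selenok.

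Of the 55 fold changes of single members that were called, DESeq2 kept the call of 55, its size factors of 52, filterByExpr of 51, the fit without dark mice 1 and 6 of 54, no filter of 39, the astrocyte term of 31, the cerebellar term and the fit without the 4 mice rich in cerebellar markers of 53 each, only the groups compared of 40 (of the 52 it could give) and the hippocampal term of 14. Searching the 250 bases before the start alone left ERSE-II in 1 member. No analysis paired by litter was possible because the sources used here do not give the litter of each mouse. Trib3 had too few counts to be tested.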
